A study of Mus musculus with 10 samples.

Results

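Stem and progenitor cells stay in the bone marrow, and find their way back to it after transplantation, through a small set of surface receptors. The 8 genes described here encode such receptors and 1 of their counter-receptors: Cxcr4, Selplg, Itga4, Itga5, Itga6, Itgb1, Cd44 and Vcam1. They were chosen by name from among 20972 genes named on the arrays (48997 features with the unnamed probes), and every probe whose annotated transcript belongs to one of them was used, which gave 15 probes.

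As background, Cxcr4 is the receptor for the chemokine Cxcl12, which marrow niche cells release and which draws stem cells to the niche and holds them there. Integrins are pairs of an alpha and a beta chain that grip matrix and cell surface proteins once signals inside the cell switch them on: the alpha chains Itga4, Itga5 and Itga6, paired with the shared beta chain Itgb1, bind Vcam1 and fibronectin, fibronectin, and laminin, respectively. Selplg is the ligand by which blood cells roll on selectins of the vessel wall, Cd44 binds hyaluronan, and Vcam1 is the surface protein that Itga4-bearing cells hold on to, best known in marrow on stromal cells, sinusoidal endothelium and resident macrophages.

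RNA was measured on 10 one-colour arrays of LSK cells (Lineage-, c-Kit+, Sca-1+), the marrow fraction that holds stem cells and early progenitors, sorted as CD45.2 cells from C57BL/6 mice after transplantation. The knockout (KO) genotype was Cre-Ert;Ezh2fl/fl, in which tamoxifen deletes the floxed histone methyltransferase gene Ezh2, and the wild type (WT) was Cre-Ert, so all groups carried the tamoxifen-activated Cre. At 3 months after transplantation there was 1 WT array and 1 KO array, both without disease. The series' description states 3 mice for this time, and whether they were pooled is not stated. At 9-12 months there was 1 WT array without disease, 1 KO array whose label joins MDS, MDS/MPN and MDS/MPN_TC (mixed-disease array), and 6 KO arrays with an identifier of their own: 2 labelled MDS (myelodysplastic syndrome), 3 labelled MDS/MPN (with myeloproliferative features; array 1 carries the addition TC and array 3 the addition CMMoL) and 1 undetermined. That these 6 came from separate mice is not stated, and p values measure only the spread between the arrays, which may be technical. Each WT value rests on 1 array, with no replicate.

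The 3-month pair lay on slide 1 and the other 8 arrays on slide 2, where WT, mixed-disease and MDS arrays were in line 1 and the MDS/MPN and undetermined arrays in line 2. Time cannot be told apart from slide, nor MDS/MPN from the line. The deposited value table gives the 9-12 month labels to the 3-month pair and the other way round; the times used here are those of the scanner files. The 75th percentile of the signal, to which each array was scaled, was 302 on MDS/MPN array 2 and between 78.7 and 145 on the others, and 32.5% to 47.5% of probes were well above background. The single Ezh2 probe read between 2.14 and 2.63 (log2 over the 75th percentile) in WT and between 2.13 and 3.35 in KO. Its place relative to the deleted exons is not known here, so it does not check the genotype labels. Of the markers that define the sort, Kit, Ly6a (Sca-1) and Ptprc (CD45) were well above background on all 10 arrays. All levels below are log2 values over the 75th percentile of the array, and levels of different genes are not compared, because they come from different probes. In bulk RNA, fewer cells of a type and less RNA per cell cannot be told apart.

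Of the 8 receptor genes, 7 were well above background on all 10 arrays, and Vcam1 was so on 7 of the 10. None of the 8 passed an adjusted p of 0.05 in any comparison (limma with Benjamini-Hochberg adjustment over all features).

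**Figure D1:**
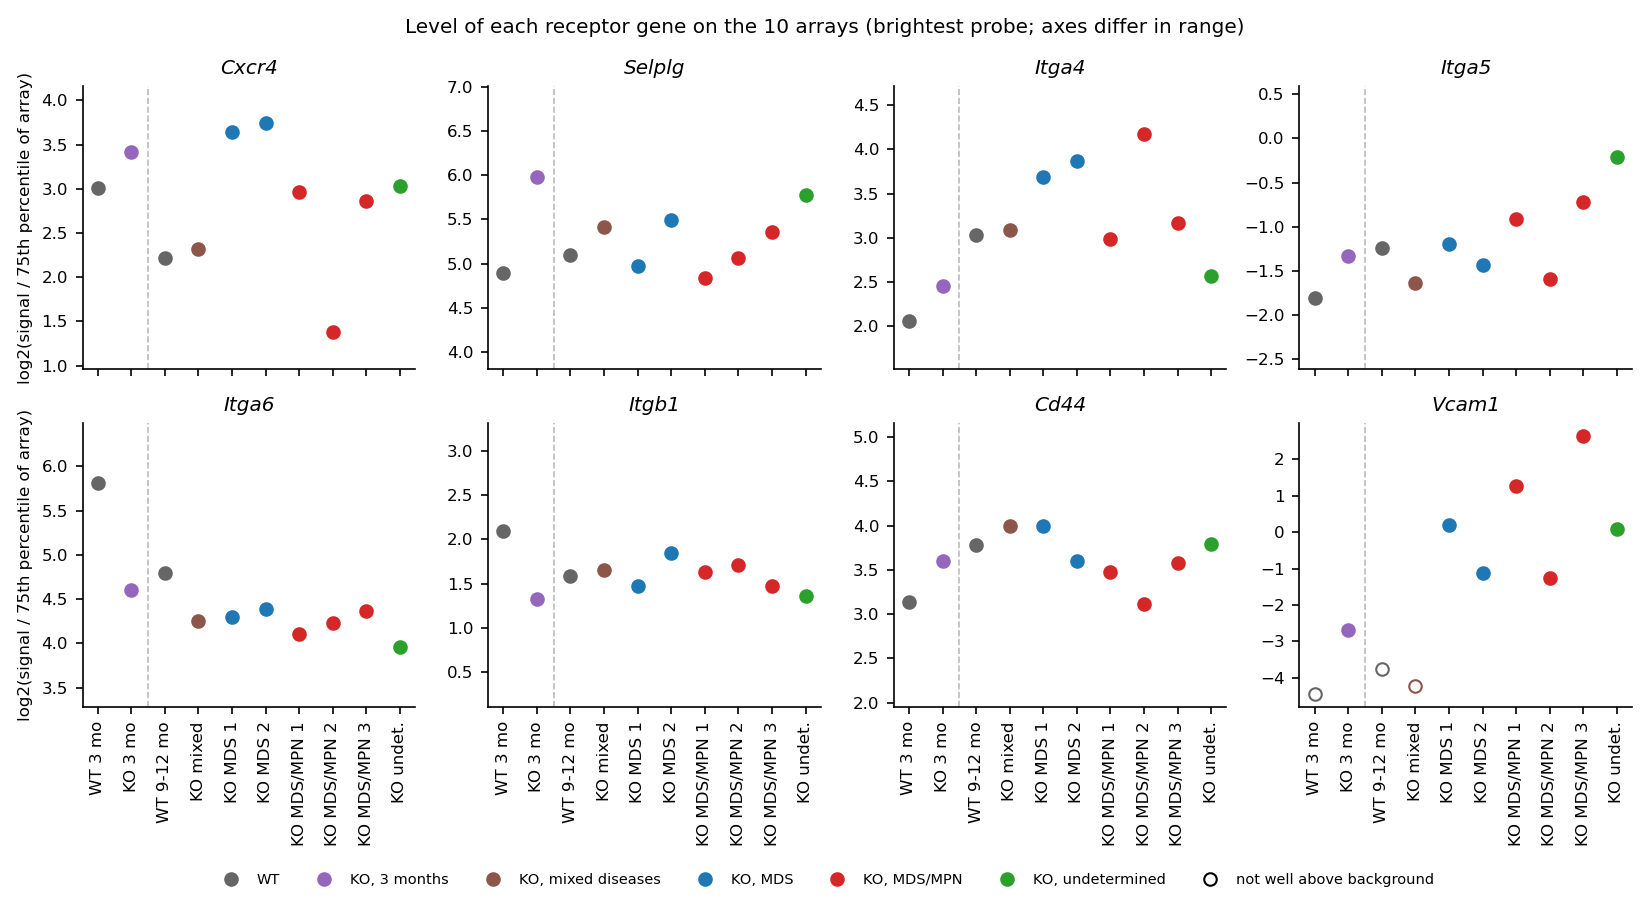
Level of each receptor gene on each array as log2 signal over the 75th percentile of the array, from the brightest probe; the dashed line separates slide 1 (left) from slide 2, and the vertical ranges differ between panels. Vcam1 was not well above background (open circles) on both WT arrays and the mixed-disease array, and Itga6 was lower on each KO array than on the WT array of its slide.

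Cxcr4, the homing receptor, was read by 1 probe (A_52_P585124). At 3 months its level was 3.01 in WT and 3.42 in KO. On slide 2, at 9-12 months, it was 2.21 in WT, 2.32 on the mixed-disease array, 3.65 and 3.74 on the MDS arrays, 2.97, 1.38 and 2.86 on the MDS/MPN arrays and 3.04 on the undetermined array. Both MDS arrays were the highest of all, while MDS/MPN array 2 was the lowest and the only KO array below the WT array of its slide.

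Selplg, the selectin ligand, was read by 2 probes. With the brighter one (A_51_P131358) the level was 4.90 in WT and 5.98 in KO at 3 months. At 9-12 months it was 5.09 in WT, 5.41 on the mixed-disease array, 4.97 and 5.50 on the MDS arrays, 4.84, 5.07 and 5.35 on the MDS/MPN arrays and 5.78 on the undetermined array. The 3-month KO array was the highest, and the 6 individually labelled KO arrays lay on either side of WT. The dimmer probe (A_55_P1976212) had the same order in the 3-month pair, with 2.31 in WT and 3.40 in KO.

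Itga4, the alpha chain that binds Vcam1, was read by 2 probes. With the brighter one (A_55_P2040026) it was 2.06 in WT and 2.46 in KO at 3 months. The 9-12 month levels were 3.03 in WT, 3.09 on the mixed-disease array, 3.68 and 3.87 on the MDS arrays, 2.99, 4.17 and 3.17 on the MDS/MPN arrays and 2.57 on the undetermined array. The 3-month pair was the lowest, MDS/MPN array 2 was the highest, and KO arrays lay above and below WT on slide 2. The dimmer probe (A_66_P140103) was between -2.10 and -0.78 and had its highest value on MDS array 2, so the probes did not rank the arrays alike.

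Itga5, the alpha chain of the main fibronectin receptor, was read by 1 probe (A_52_P364140). It was -1.81 in WT and -1.33 in KO at 3 months. At 9-12 months it was -1.24 in WT, -1.64 on the mixed-disease array, -1.19 and -1.43 on the MDS arrays, -0.91, -1.59 and -0.72 on the MDS/MPN arrays and -0.21 on the undetermined array. The undetermined array was the highest, and the groups overlapped.

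Itga6, the laminin-binding alpha chain, was read by 1 probe (A_55_P2015670). It was 5.81 in WT and 4.60 in KO at 3 months. Later, at 9-12 months, it was 4.79 in WT, 4.25 on the mixed-disease array, 4.30 and 4.39 on the MDS arrays, 4.10, 4.23 and 4.37 on the MDS/MPN arrays and 3.96 on the undetermined array. Every one of the 8 KO arrays was below the WT array of its slide, as for 5.48% of all features, with differences of -1.21 to -0.40. The WT arrays themselves differed, at 5.81 on slide 1 and 4.79 on slide 2. The 6 individually labelled KO arrays spanned only 3.96 to 4.39.

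Itgb1, the beta chain shared by the alpha chains above, was read by 2 probes that differed. With the brighter one (A_66_P113059) it was 2.10 in WT and 1.32 in KO at 3 months. At 9-12 months it was 1.58 in WT, 1.65 on the mixed-disease array, 1.47 and 1.84 on the MDS arrays, 1.63, 1.71 and 1.47 on the MDS/MPN arrays and 1.36 on the undetermined array. On slide 2 the KO arrays lay on either side of WT. With the dimmer probe (A_52_P351816) the level was 1.02 in WT and 0.11 in KO at 3 months. At 9-12 months it was -0.28 in WT and -1.40 to -0.45 on the 6 individually labelled KO arrays. All 6 were below WT, as for 13.9% of all features.

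Cd44, the hyaluronan receptor, was read by 4 probes. With the brightest (A_55_P2064043) it was 3.13 in WT and 3.60 in KO at 3 months. The levels at 9-12 months were 3.78 in WT, 3.998 on the mixed-disease array, 3.996 and 3.60 on the MDS arrays, 3.47, 3.11 and 3.58 on the MDS/MPN arrays and 3.79 on the undetermined array. MDS/MPN array 2 and the 3-month WT array were the lowest. The next probe (A_55_P2166501) was also well above background on all 10 arrays, between 1.55 and 2.79, again with its lowest value on MDS/MPN array 2. The other two (A_55_P2166488 and A_55_P2166486) were well above background on 3 arrays only, the 3-month pair and MDS/MPN array 2.

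Vcam1, the counter-receptor of Itga4, was read by 2 probes. With the brighter one (A_51_P210956) it was not well above background on the 3-month WT array (measured value -4.43) and was -2.69 on the 3-month KO array. At 9-12 months it was not well above background in WT (-3.75) or on the mixed-disease array (-4.22). It was 0.21 and -1.13 on the MDS arrays, 1.26, -1.26 and 2.63 on the MDS/MPN arrays and 0.08 on the undetermined array. Each of the 6 individually labelled KO arrays thus carried a Vcam1 signal that neither WT array had, and these 6 spread from -1.26 to 2.63, MDS/MPN array 3 being the highest. The dimmer probe (A_52_P520495) was well above background only on MDS/MPN array 3, at -0.87. The mixed-disease array, although its label joins the same diseases, had no Vcam1 signal well above background, and the 6 arrays had a mean at least 6.49-fold above it; under the time labels of the value table this array would be the 3-month KO sample. A fold written as "at least" takes for the dim value the lowest signal on that array that counts as well above background, or its own if higher, and holds for the brighter probe with this scaling.

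To ask how loss of Ezh2 goes with these receptors late after transplantation, the 6 individually labelled KO arrays were set against the WT array of their slide. The mean of Vcam1 over the 6 KO arrays was at least 6.25-fold above WT, and each of the 6 was above WT. This fold is of the mean and does not hold for each array: MDS/MPN array 2 was at -1.26 and the WT bound at -2.35. Vcam1 entered the test only through the KO arrays, because WT was not well above background. Its p value thus cannot decide whether KO and WT differ. The log2 difference of measured values was 4.05 ± 1.26 (SE, limma adjusted p = 0.444) and did not pass the threshold. That size depended on the processing: the difference was 1.59 ± 0.89 with normexp background correction and 2.44 ± 1.40 with the median of the probes (SE; limma adjusted p = 0.9999 for both). The differences of the other genes were 0.73 ± 0.78 for Cxcr4, 0.38 ± 0.61 for Itga4, 0.23 ± 0.55 for Itga5, 0.16 ± 0.46 for Selplg, -0.0028 ± 0.39 for Itgb1, -0.19 ± 0.43 for Cd44 and -0.57 ± 0.38 for Itga6 (SE; limma adjusted p = 0.9999 for each). Cxcr4 was higher on 5 of 6 arrays and Itga6 lower on 6 of 6. For Itgb1 the value rests on the probe. Its dimmer probe, also well above background on all 10 arrays, gave -0.67 ± 0.48 (SE) and was lower on 6 of 6. The counts below take the brightest probe of each gene.

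In this comparison 0 of the 8 genes were called, beside 0.587% of 19597 features tested (115 features, 0.0051% higher and 0.582% lower). At an unadjusted p under 0.05 stood 1 of the 8, beside 4.67% of features. This was Vcam1, which here and in the next count passed the filter only through the KO arrays. All 6 KO arrays were above WT for 1 of the 8 (Vcam1), as for 9.29% of features, and below WT for 1 of the 8 (Itga6), as for 13.9% of features. The 8 differences had a median of 0.193, with 5 above and 3 below 0, while the median of all features was -0.0141. The fit gives the single WT array the spread of the KO arrays. Under the value table's time labels, the KO arrays of slide 2 are set against the WT array of slide 1. Genotype and slide then cannot be told apart. With the 2 MDS arrays alone as KO, which share line 1 with WT, the difference was 1.48 ± 0.28 for Cxcr4 (limma adjusted p = 0.389), 3.29 ± 0.71 for Vcam1 (0.451) and -0.45 ± 0.28 for Itga6 (0.859); with the value table's time labels it was -0.07 for Cxcr4 and -1.59 for Itga6 (0.127).

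**Figure D2:**
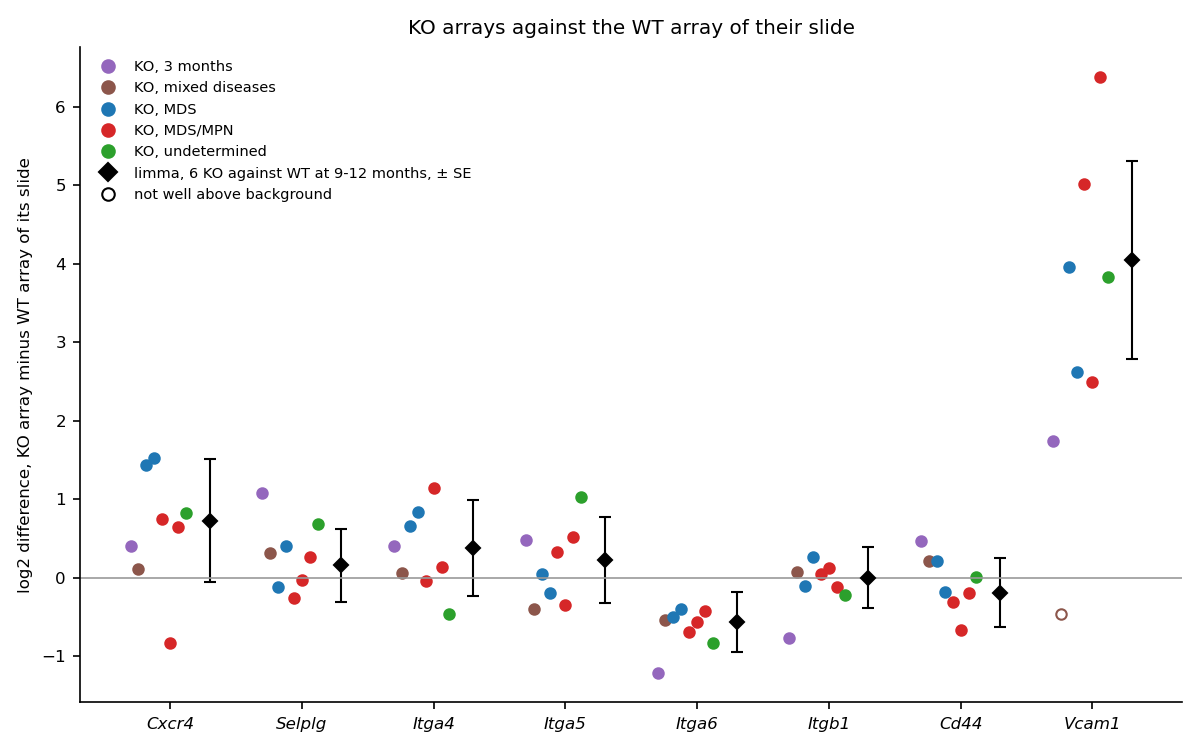
Log2 difference of each KO array from the WT array of its slide, 1 circle per array, with the limma estimate for the 6 individually labelled KO arrays against WT at 9-12 months (diamond, ± SE). Vcam1 differences are of measured values and WT was not well above background. All 8 circles of Itga6 lie below 0. For Cxcr4, 7 of 8 lie above 0, with the MDS arrays at 1.43 and 1.53. Those of the other genes but Vcam1 lie on both sides of 0.

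Across both times, the 8 KO arrays were set against the 2 WT arrays with slide as a block. Itga6 differed by -0.80 ± 0.28 (SE) on the log2 scale, lower in KO on 8 of 8 arrays (unadjusted p = 0.0164, limma adjusted p = 0.703). The mean of Vcam1 over the 8 KO arrays, 7 of them above background, was at least 4.54-fold above that of the 2 WT arrays. Vcam1 again entered the test only through KO arrays, because neither WT array was well above background. Its log2 difference of measured values was 2.80 ± 1.44 (limma adjusted p = 0.954). It was 1.02 ± 0.74 after normexp background correction (limma adjusted p = 1) and 1.66 ± 1.20 with the median of the probes (0.974). The difference was 0.55 ± 0.58 for Cxcr4, 0.51 ± 0.35 for Selplg, 0.36 ± 0.44 for Itga4, 0.26 ± 0.42 for Itga5, 0.08 ± 0.33 for Cd44 and -0.28 ± 0.29 for Itgb1 (limma adjusted p between 0.968 and 0.997). None of the 8 was called, and neither was any of 22365 features (0%); 1 of the 8, Itga6, stood at an unadjusted p under 0.05, beside 5.54% of features. All 8 KO arrays were below the WT array of their slide for 1 of the 8, Itga6, as for 5.48% of features, and above it for 0 of the 8, beside 5.46%. With the dimmer Itgb1 probe, which gave -0.70 ± 0.38 (SE), all 8 were below too, the mixed-disease array with a difference of only -0.0026. Without the mixed-disease array Vcam1 was 3.20 ± 1.01 (limma adjusted p = 0.618), and without the 3-month WT array Itga6 was -0.56 and without the 9-12 month WT array -1.21.

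At 3 months, with 1 array each and no test, Vcam1 was at least 1.53-fold higher in KO than in WT, where it was not well above background. The log2 difference of measured values was 1.75, and 0.40 with normexp background correction, 0.95 with the median of the probes and 1.41 with quantile normalization. Selplg was higher by 1.08, Itga5 by 0.48, Cd44 by 0.46, Cxcr4 by 0.41 and Itga4 by 0.40 on the log2 scale, whereas the difference was -0.78 for Itgb1 and -1.21 for Itga6. Of all features, 12.8% were at least 2-fold higher and 12.1% at least 2-fold lower in this pair, so the Selplg and Itga6 differences were of a size that many features had. The median of all features was 0.226 here, and 0.0613 after quantile normalization. The small differences varied with the processing: over the alternatives Selplg was between 0.57 and 1.08, Cd44 between 0.0018 and 0.42, Cxcr4 between 0.11 and 0.41 and Itga4 between -0.086 and 0.30. The probes differed for Itga4, whose dimmer probe gave -0.57, while both Itgb1 probes were lower in KO (-0.78 and -0.91).

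The difference between the KO effects at the 2 times was tested directly. It was 0.77 ± 0.67 for Itgb1, 0.64 ± 0.67 for Itga6, 0.32 ± 1.30 for Cxcr4, -0.02 ± 1.03 for Itga4, -0.25 ± 0.93 for Itga5, -0.65 ± 0.75 for Cd44 and -0.92 ± 0.79 for Selplg (SE; limma adjusted p = 1 for each). For Vcam1 it has no defined size, because neither WT array was well above background. None of 23299 features was called (0%), and 4.98% stood at an unadjusted p under 0.05, with 0 of the 8 among them. With the value table's time labels the sign turned for 7 of the 8 genes, all but Vcam1, and none was called.

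The mixed-disease array and the WT array of its slide were close for these genes, with no test. The differences were 0.32 for Selplg, 0.22 for Cd44, 0.10 for Cxcr4, 0.07 for Itgb1, 0.06 for Itga4, -0.40 for Itga5 and -0.54 for Itga6, and Vcam1 was not well above background on either. None reached 2-fold, which 4.51% of features did upward and 4.35% downward. Between the WT arrays, which differ in time and slide together, Itga4 was higher by 0.97, Cd44 by 0.65, Itga5 by 0.57 and Selplg by 0.19 at 9-12 months, and the difference was -0.51 for Itgb1, -0.80 for Cxcr4 and -1.02 for Itga6. For Cd44 this rests on the probe: the median of its probes gave -0.57, but it takes in dim probes not well above background on the 9-12 month WT array. The second probe, well above background on all 10 arrays, read 2.20 in WT at 3 months and 2.08 at 9-12 months. In that pair, 9.87% of features were at least 2-fold higher and 14.1% at least 2-fold lower.

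Whether the receptors differ between the disease labels was asked with the 3 MDS/MPN arrays against the 2 MDS arrays. Cxcr4 was 3.69 ± 0.07 (SD, n = 2) in MDS and 2.40 ± 0.89 (SD, n = 3) in MDS/MPN, a difference of -1.29 ± 0.57 (SE; unadjusted p = 0.0651, limma adjusted p = 0.992). Without MDS/MPN array 2 it was -0.78 ± 0.18 (limma adjusted p = 0.119). Cd44 was 3.80 ± 0.28 (SD, n = 2) in MDS and 3.39 ± 0.24 (SD, n = 3) in MDS/MPN, a difference of -0.41 ± 0.35 (SE; limma adjusted p = 0.992). Vcam1 differed by 1.34 ± 1.16, and by 0.46 without MDS/MPN array 3, 2.41 without MDS/MPN array 2 and 0.67 or 2.01 with only 1 of the MDS arrays. The other differences were 0.24 ± 0.40 for Itga5, -0.06 ± 0.33 for Itgb1, -0.11 ± 0.32 for Itga6, -0.15 ± 0.37 for Selplg and -0.33 ± 0.46 for Itga4. All MDS/MPN arrays were below both MDS arrays for 2 of the 8, Cxcr4 and Cd44, as for 12% of features, and above both for 0 of the 8, beside 7.74%. None of 20726 features was called (0%), with 0 of the 8 and 4.45% of features at an unadjusted p under 0.05. For Cd44 the median of its probes gave 0.46, but it takes in dim probes not well above background on the MDS arrays. Its second probe, well above background on all 10 arrays, gave -0.16 ± 0.44 (SE).

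The genes around these receptors were read from role lists, with 0 genes called in each list in each of the 4 tested comparisons. The values that follow are for the 6 KO arrays against WT at 9-12 months, where the median of all features was -0.0141. In the chemokine axis 6 of 8 genes were tested, 4 above and 2 below 0. Rgs1 and Rgs2, which damp signals of receptors that act through G proteins, were at -2.14 ± 1.63 and -1.58 ± 0.97 (SE). The kinase Grk6 and the arrestin Arrb2, which switch such receptors off, were at 0.65 ± 0.49 and 0.44 ± 0.51. Cxcl12 itself was well above background on 1 array and its scavenger receptor Ackr3 on 1. The handling response list moved in the same arrays: its 10 immediate early genes, to which Rgs1 and Rgs2 do not belong, summed to between 408 and 1904 times the 75th percentile in WT and between 49.1 and 848 on the 6 KO arrays, and its part in these values was not tested.

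Of the other integrins, 9 of 14 listed genes were tested, 6 above and 3 below 0. Itgb2, the beta chain of the leukocyte integrins, was at 1.29 ± 0.48 (SE; unadjusted p = 0.0268, limma adjusted p = 0.784), Itga2b, the platelet integrin chain, at 0.90 ± 1.03, Itgb7, the other beta partner of Itga4, at 0.89 ± 0.58 and Itga9, another Vcam1-binding chain, at -1.63 ± 0.82. Itgb2 and Itgb7 were above WT on 6 of 6 KO arrays, as were 9.29% of all features. Among genes that switch integrins on or carry their signal, 14 of 16 were tested, 12 above and 2 below 0, with a list median of 0.357. Pxn (paxillin) was at 0.69 ± 0.48, Apbb1ip, which brings talin to integrins, at 0.62 ± 0.43, the GTPase Rac1 at 0.61 ± 0.52 and Fermt3 (kindlin of blood cells) at 0.58 ± 0.57 (limma adjusted p = 0.9999 for each).

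All 8 listed genes that build selectin ligands were tested, 4 above and 4 below 0. The sialyltransferase St3gal6 was at 1.66 ± 0.92, the glycan-branching enzyme Gcnt1 at -0.81 ± 0.42, the fucosyltransferase Fut7 at -0.62 ± 0.53 and the tyrosine sulfotransferase Tpst1 at -1.10 ± 0.63 (SE). Of 16 other adhesion molecules, 3 were above and 13 below 0, with a median of -0.303. Esam, an endothelial-type adhesion molecule also found on stem cells, was at -2.23 ± 1.03 (limma adjusted p = 0.9999). It was below WT on 6 of 6 arrays, as were 13.9% of all features. Robo4 was at -1.19 ± 1.34, Cd34 at -0.87 ± 0.49 and Jam3 at 0.75 ± 1.08. Of 12 matrix and counter-receptor genes, 5 were tested, 1 above and 4 below 0. The shedding protease Adam17 was at -1.03 ± 0.46, the laminin chains Lamc1 at 0.83 ± 0.54 and Lama5 at -0.63 ± 0.40, and Selp, the selectin that Selplg binds, at -0.54 ± 0.66.

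**Figure D3:**
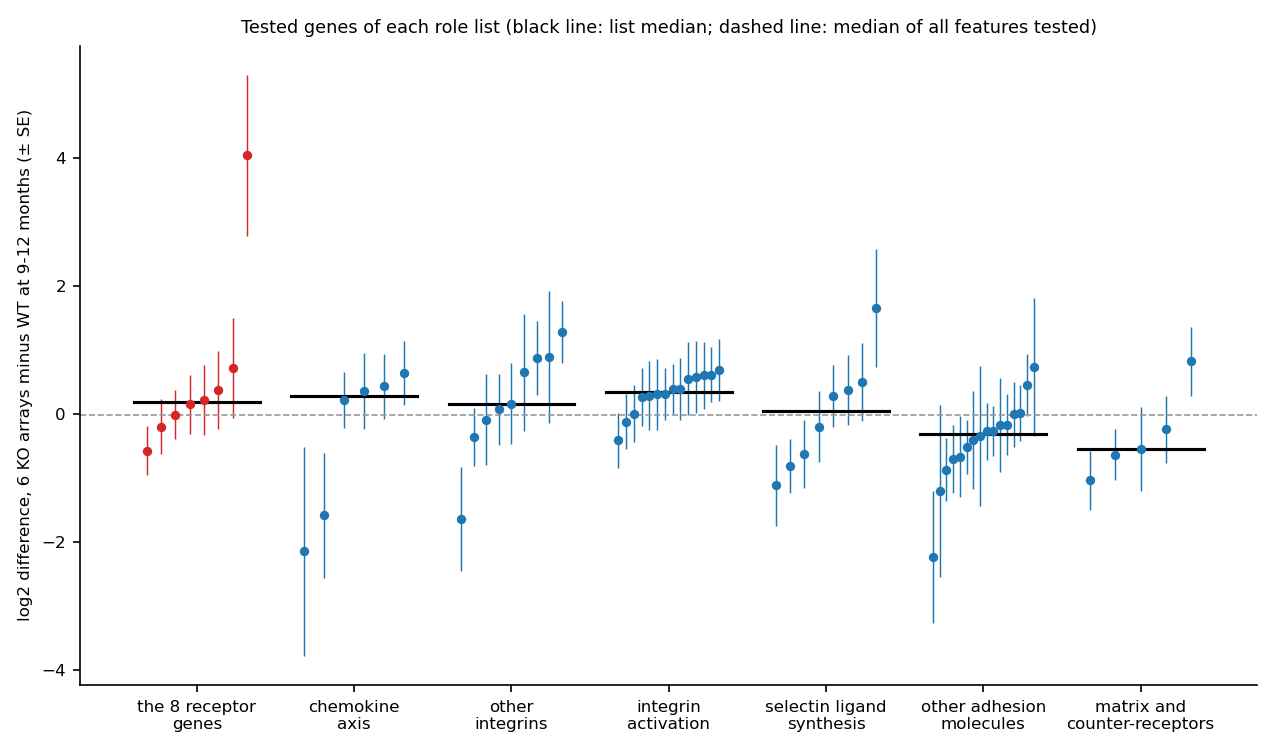
Log2 difference (± SE) of each tested gene in the 6 individually labelled KO arrays against the WT array at 9-12 months, grouped by role; black lines are list medians and the dashed line is the median of all features tested (-0.0141). No gene shown passed the threshold, and Vcam1, at 4.05, lies farthest from 0.

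Because Vcam1 is also made by cells outside the LSK gate, markers of those cells were read on the same arrays. Of 12 macrophage and monocyte markers, 10 were on the array, and their summed signal was 12.8 to 31.9 times the 75th percentile on the 2 WT arrays, with 3 to 5 well above background. It was 32.1 to 120 on the 6 KO arrays with 5 to 8 above background, 72.9 on the 3-month KO array and 23.8 on the mixed-disease array. The 7 arrays with a Vcam1 signal thus had the 7 highest sums, the lowest of them (32.1) next to the 31.9 of the 9-12 month WT array, although the highest sum was on the undetermined array and the highest Vcam1 on MDS/MPN array 3. Cd5l, a gene of resident macrophages, was well above background on 5 of the 6 KO arrays and on no other. Spic, another such gene, was so on all 10 arrays and was below WT on 4 of the 6. C1qa was well above background on 1 array and Mrc1 on none. Csf1r and Ly86, bright genes of most weight in the sums, were above WT on 3 and 6 of the 6 KO arrays. Of the 8 markers tested at 9-12 months, 7 were above and 1 below 0, with 0 called. The 7 arrays with a Vcam1 signal also had the highest mast cell marker sums. These were 14.6 to 20.4 in WT and 16.6 on the mixed-disease array, and 21.25 to 98.9 on the 7 arrays with a Vcam1 signal. Neutrophil markers summed to 232 to 781 in WT, 586 on the mixed-disease array, 1760 on the 3-month KO array and 663 to 3198 on the 6 KO arrays, where 9 of 9 were above 0 against WT with a median difference of 2.94 and 0 called. Mpo, the gene of most weight in the neutrophil sums, was above WT on 4 of the 6 KO arrays. The part of any of these cells in the Vcam1 values was not tested.

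Erythroid markers summed to 1.83 and 3.75 in WT, 5.80 to 188 on the 6 KO arrays, 27.99 on the 3-month KO array and 6.21 on the mixed-disease array. Stromal markers summed to 21.0 to 27.6 in WT, 37.6 on the 3-month KO array, 26.65 on the mixed-disease array and 9.65 to 31.7 on the 6 KO arrays. Of these, Pdgfrb, Lepr and Col1a2 were well above background on all 10 arrays, and Pdgfra, Col1a1, Col3a1 and Kitl were so on none. Lepr had the most weight in the WT sums. Pdgfrb was above the WT array of its slide on 7 of 8 KO arrays, Col1a2 on 5 and Lepr on 4. The share of all features with counts of this kind was not taken. Endothelial markers summed to 48.8 to 56.0 in WT, 78.1 on the 3-month KO array, 47.3 on the mixed-disease array and 13.2 to 59.4 on the 6 KO arrays. Kdr and Pecam1 were well above background on all 10 arrays, and Cdh5 and Flt4 on none. Kdr had by far the most weight in the endothelial sums and was above WT on 3 of the 6 KO arrays. The part of stromal and endothelial cells in the Vcam1 values was not tested. Markers of LSK cells and their stem cell fraction summed to 402 to 509 in WT, 230 to 495 on the 6 KO arrays and 461 on the 3-month KO array. Procr, a stem cell marker, was below the WT array of its slide on 7 of 8 KO arrays, as Itga6 was on 8 of 8, and the part of a different mix of cells in the Itga6 values was not tested.

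**Figure D4:**
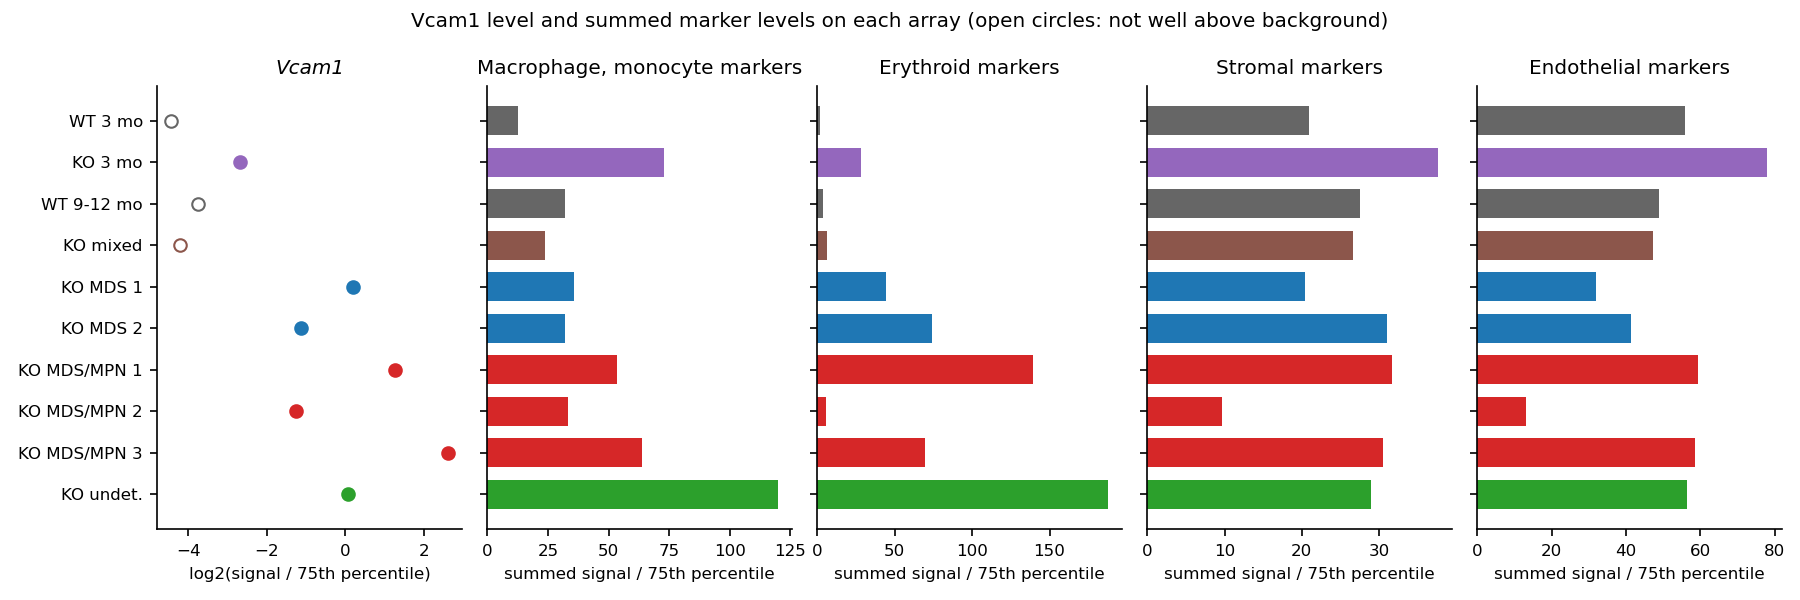
Vcam1 level (log2 signal over the 75th percentile, open circles not well above background) beside the summed signal of macrophage and monocyte, erythroid, stromal and endothelial markers, in multiples of the 75th percentile, on each array. The 7 arrays with Vcam1 well above background have macrophage and monocyte sums of 32.1 to 120, the 3 others 12.8 to 31.9. The endothelial sums are mostly Kdr, and the stromal sums in WT mostly Lepr.

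For each receptor gene, the genes whose level over the 10 arrays was most like it were found among 11563 named genes well above background on at least 5 arrays, by Pearson r over the 10 arrays. The arrays share slides, lines and disease labels, so these r values are a description. For Vcam1 they were Chst13 (r = 0.964), Nectin1 (0.964) and Batf3 (0.947), and for Itga6 they were Jam2 (0.965), Tead2 (0.962) and Mdfi (0.943). For Cxcr4 they were Klhdc7a (0.928), Them7 (0.911) and Zfp57 (0.898). For Itga4 they were Wnk1 (0.969), Eif4ebp3 (0.966) and Vps13b (0.962), and for Itga5 they were Phykpl (0.983), Scamp4 (0.979) and Shkbp1 (0.979). For Itgb1 they were Nbr1 (0.881), Ptk2b (0.873), a kinase of the integrin activation list, and Cdcp1 (0.863). For Cd44 they were 1700052K11Rik (0.937), Cstf2t (0.923) and Elovl5 (0.911). For Selplg they were Vav1 (0.898), an exchange factor of the same list, Rprd1b (0.876) and Sting1 (0.869).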

How the data were processed

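Each spot of the deposited scanner files has an intensity, background-subtracted and detrended within the array by Feature Extraction 10.7.1.1, per the file headers (version 9.1 per the submitters' processing notes). The deposited value table holds a ratio, this intensity over the 75th percentile of the array, found by setting each column against each file; 4 of its 10 columns matched an array with another time label.

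Here spots of a probe were averaged without control and outlier spots, log2 values were scaled to the 75th percentile of each array, and probes were named through RefSeq accessions and the RefSeq table of GRCm38.p6 (20972 genes). The array annotation is on mm9, so no coordinates are given. The brightest probe stood for its gene. Features well above background on at least 50% of the arrays of 1 compared group were tested with limma 3.58.1 (lmFit, eBayes) in R 4.3.3, adjusted by Benjamini-Hochberg at 0.05, after a check on simulated data; tables and figures used Python 3.11.15. The disease fit held the WT and undetermined arrays as groups of their own and left out the mixed-disease array. The number of arrays limits the precision.

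Members and lists were chosen with earlier results of these data known. All members are named with every probe; from each role list at most 4 genes with the largest difference in KO against WT at 9-12 months, the 3 genes most like each member, and of the marker lists the highest genes and those not above background. Alternatives were quantile normalization, normexp on median signals, filters, probe rule, value table, eBayes settings, slide block, array sets and leaving out arrays.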

Additional observations from a re-analysis of the deposited data

Results flagged for a closer look

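Cxcr4 on MDS/MPN array 2, at 1.38 (log2 over the 75th percentile), lay below the other 5 of the 6 individually labelled KO arrays, which spanned 2.86 to 3.74. Its gap to the nearest of them was 0.628 of the whole range of the 6, just past the flagging limit of 0.625. Of the 8 receptor genes checked in this way it was the only one with such an array. Chance sets 1 array apart in about 1 of 20 groups, so with 8 genes checked 1 such array can arise by chance. The same array had the highest 75th percentile (302), the lowest Cd44 (3.11) and the highest Itga4 (4.17) of the 6, and among the 6 the highest sum of immediate early genes (848, the other 5 between 49.1 and 124). The part of these in the Cxcr4 value was not tested.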

How the results depend on the processing

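None of the 8 genes was called under any alternative: of 553 values of the tested comparisons, 501 kept their direction, 52 turned it and 0 passed the threshold, with a lowest adjusted p of 0.119 (limma). Vcam1 kept its direction in every tested comparison but not its size, and Itga6 in all but the difference of KO effects. The limits are few arrays, single WT arrays, dim Vcam1 probes near background and confounded slides and lines. The count of called features for KO against WT at 9-12 months (115) was 247 with quantile normalization, 182 with the mixed-disease array added, 50 without a filter, 12 without the undetermined array, and 0 with normexp (462 at an unadjusted p under 0.05), with features above background on every array (213), with a trended robust prior (838) and with the 2 MDS arrays alone (1624). Leaving out 1 array gave 0 to 215: 0 without MDS array 1 (866) or MDS/MPN array 3 (801), 4 without MDS array 2, 12 without the undetermined array and 215 without MDS/MPN array 2. WT could not be left out. For all KO against WT (0) it was 1 with quantile normalization, 3 with the value table and 2 without the slide block, and 0 to 177 with 1 array left out (177 without the 3-month WT array, 154 without the 3-month KO array). For the difference of KO effects (0) it was 184 with quantile normalization, 2 with the value table and 2 with its time labels. The cause of these changes was not tested, apart from fewer features or arrays entering.

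Values that turned direction follow, as log2 differences. Those from the value table or its time labels set KO arrays of slide 2 against the WT array of slide 1. In KO against WT at 9-12 months, the value table and its time labels gave -0.066 and -0.071 for Cxcr4 and 0.46 and 0.46 for Cd44. Cd44 was also 0.10 with the median probe, 0.019 with the MDS arrays alone and 0.25 with its second probe. Itga5 was -0.074 with the MDS arrays alone, and Selplg was -0.011 with quantile normalization. Itgb1 was 0.0071 with the mixed-disease array added, 0.023 with normexp, 0.075 with the MDS arrays alone and 0.041 without the undetermined array, and -0.055 to 0.041 with 1 array left out. For all KO against WT, Cd44 was -0.091 with quantile normalization, -0.12 and -0.36 with its dim probes and -0.13 to 0.46 with 1 array left out, the dim Itga4 probe gave -0.10, and Itgb1 was -0.78 to 0.0071 with 1 array left out. For MDS/MPN against MDS, Cd44 was 0.46 with the median probe, the dim Itga4 probe gave 0.028, and with 1 array left out Itgb1 was -0.24 to 0.13 and Selplg -0.41 to 0.12. For the difference of KO effects, the value table and its time labels gave -0.17 and -0.18 for Cxcr4, 1.30 and 1.29 for Itga4, 1.21 and 1.20 for Itga5, -1.04 and -1.05 for Itga6, -0.58 and -0.58 for Itgb1, 0.25 and 0.24 for Cd44 and 0.041 and 0.036 for Selplg. Cd44 was also 0.10 with the median probe and 0.32 with a dim probe, and Itga4 was 0.35 with the median probe, 0.069 with normexp, 0.72 with its dim probe, 0.14 with quantile normalization and -0.17 to 0.15 with 1 array left out. The pairs of single arrays have no test and no replicates, so they have no spread of their own. At 3 months the KO minus WT difference of Cd44 was 0.46, but 0.16 with quantile normalization and 0.0018 with the median probe. With quantile normalization that of Selplg went from 1.08 to 0.57 and that of Itga6 from -1.21 to -1.59. Other differences of this pair varied too, as given above. The cause was not tested. No paired analysis was possible because the labels give the groups no replicate numbers.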
